A study of Vitis vinifera with 36 samples.

Results

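Developing seeds of Red Globe (RG), a seeded (SD) table grape variety, and of Thompson Seedless (TS), a seedless (SL) one, were compared at pea size (stage S3, E-L 29, BBCH 73 to 75). The comparison rests on 6 of the 36 arrays of the series, 3 of RG and 3 of TS. The whole series holds 12 groups of 3 arrays, with Italia (IT) as the second SD variety and with pre-bloom (S1), post-bloom (S2) and veraison (S4) as the other stages. No IT array shared a slide or a scan date with an RG or TS array. Where IT levels are given beside RG and TS, variety and slide therefore cannot be told apart. All plants are Vitis vinifera from a single field collection, under conventional management and with no hormone applied. Total RNA of the seeds was hybridised to a custom 1-colour Agilent array. According to sequences that the study determined for RG and took from earlier work for TS, RG carries only the seeded form of the VviAGL11 coding sequence, while TS carries that form and the mutated one. Each variety stands for its class alone, so that variety and seed phenotype cannot be told apart, and p-values measure the spread between arrays and not between varieties.

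TS is stenospermocarpic: fertilisation takes place, but the young seed stops growing and leaves a soft trace in the berry. In a seeded berry, seeds at pea size are expanding and building the coat from the integuments of the ovule, around a liquid endosperm and a small embryo. The coat hardens with lignin and fills with flavonoids. VviAGL11 is the MADS-box gene of ovule identity that is needed for the coat layers. In bulk RNA of this kind, fewer cells of a type and less RNA per cell cannot be told apart.

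Values are log2 signals minus the array's own 75th percentile, so that 0 is a probe as bright as that percentile. Of the 22582 usable probes 22203 were tested, namely those that stood well above background throughout 1 or more of the 12 groups. It was called when its Benjamini-Hochberg adjusted p from limma was below 0.05 and the log2 difference was above 1 in either direction. Between 79.7% and 87.1% of the probes were well above background on the RG arrays, RG replicate 3 being the lowest, and 86.4% to 89.5% on the TS arrays. Correlations over probes were 0.974 to 0.989 between RG arrays, 0.969 to 0.99 between TS arrays, and 0.836 to 0.868 across the varieties.

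RG exceeded TS at pea size in 2009 called probes (9.05% of those tested), and TS exceeded RG in 3214 (14.5%). The study reported the opposite balance for this comparison, with more genes higher than lower in RG. The methods' t-test, run here without adjustment, gave 2510 higher and 3818 lower. Why the balance differs from the study's was not tested. The median difference over all probes was -0.02. The balance of the directions depended on the scaling. Quantile normalization, which moved the median to 0.22, gave 2284 higher and 2407 lower, so that the higher probes were 48.7% of the calls in place of 38.5%. The 3 RG arrays did not overlap the 3 TS arrays in 1992 of the higher and 3165 of the lower probes, beside 55.6% of all probes tested. On 2 slides both varieties were present, RG replicate 1 with TS replicate 1 and RG replicate 2 with TS replicate 3. Within both slides 2008 of the 2009 higher probes and 3209 of the 3214 lower ones kept their sign. These arrays also gave the calls, and most called probes had no overlap. The kept sign is therefore no separate check of slide effects, and its share over all probes was not counted.

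Large differences ran mostly toward TS. Of the called probes, 1725 higher and 1889 lower ones were well above background on all 6 arrays. Among these, 404 were at least 4-fold higher in RG and 1013 at least 4-fold lower, and at 16-fold the numbers were 45 and 244. A further 110 probes were well above background on all RG arrays and on no TS array, and 622 on all TS arrays and on no RG array. Restricting the fit to probes well above background on all 6 arrays gave 1749 higher and 1907 lower, which puts 47.8% of the calls on the higher side.

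**Figure D1:**
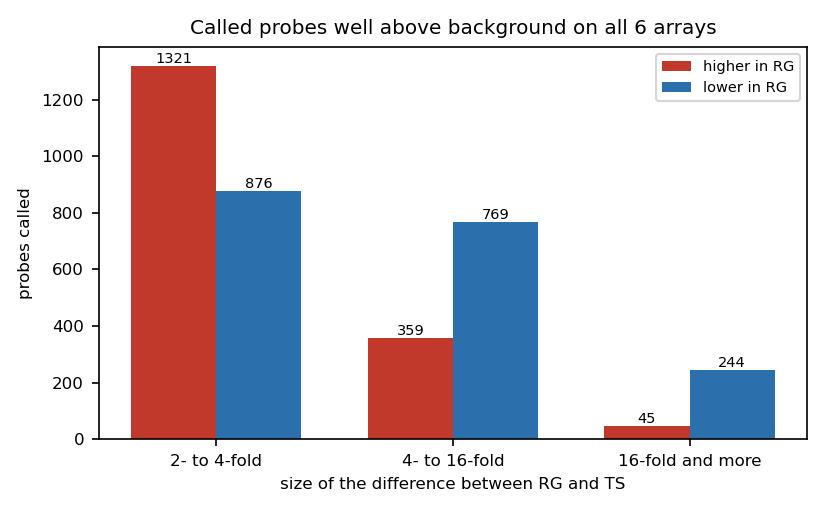
Number of probes called higher (red) or lower (blue) in RG against TS at pea size, by size of the difference, for probes well above background on all 6 arrays. Higher probes were the more numerous between 2- and 4-fold (1321 against 876), and lower probes above that (769 against 359, and 244 against 45).

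VviAGL11 (VIT_18s0041g01880) gave a check of the labels. Its log2 signals were 5.24, 5.55 and 5.72 in RG and 3.17, 3.33 and 3.26 in TS, with no overlap. The difference was 2.24 (standard error 0.42, adjusted p = 0.00019 from limma), and in IT the level was 4.46 ± 0.25 (SD, n = 3). Markers of tissues that a seed sample could hold were set beside it. Of 5 seed coat probes 3 were higher in RG, and their summed linear signal ran from 78.8 to 95.7 in RG and from 29.4 to 35.0 in TS, in units of the array's 75th percentile. VviAGL11 is 1 of these 5. Without it 2 of 4 were higher, and the sums were 41.2 to 43.6 and 19.3 to 26.0. Of 9 probes for endosperm and embryo 3 were higher and 2 lower, with sums of 1.4 to 1.45 in RG and 0.954 to 1.39 in TS. The 2 lower ones were 1-cys peroxiredoxins, on all TS arrays and on no RG array. The 1 storage protein probe, an 11S globulin (VIT_07s0005g03420), differed by 0.51 and was not called. Of 4 probes for floral organs 2 were higher, with sums of 1.23 to 1.32 against 0.261 to 0.482, and the other 2, for the tapetal regulator AMS, were on none of the 6 arrays. The 27 green tissue probes were nearly level, with 3 higher, 2 lower and sums of 208 to 261 in RG and 207 to 250 in TS. Flesh markers, 14 probes for wall-loosening enzymes and the ripening protein ASR2, had sums of 45.3 to 81.3 in RG and 61.6 to 97.5 in TS. Of these 9 were higher, all polygalacturonases or expansins, and ASR2 was lower. The part of seed coat and floral cells in the results that follow was not tested.

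Functions were read from the annotation text of the study's gene tables as far as they are in hand, which covers 4118 probes. One stretch of them was taken by alphabet from the table of the whole array (722 probes tested), and 1641 further probes come from the lists of genes that differed between SD and SL varieties at S1 or S2. Together these 2363 probes make up the set on which functions are counted. Of the set, 12% were called higher and 26.6% lower at pea size. The shares were 11.5% and 20.2% in the alphabetical stretch and 12.2% and 29.4% in the rest. The set leans toward genes that separate the varieties, and each count below should be read against these shares. The study also listed genes lower in RG at pea size, which are not in the part in hand. Another 1719 tested probes stand only in the list of genes higher in RG, a list made from these same arrays. For such genes the values are a description and not independent evidence. Through that list 1295 of the 2009 higher probes carry a function, against 508 of the 3214 lower ones.

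**Figure D2:**
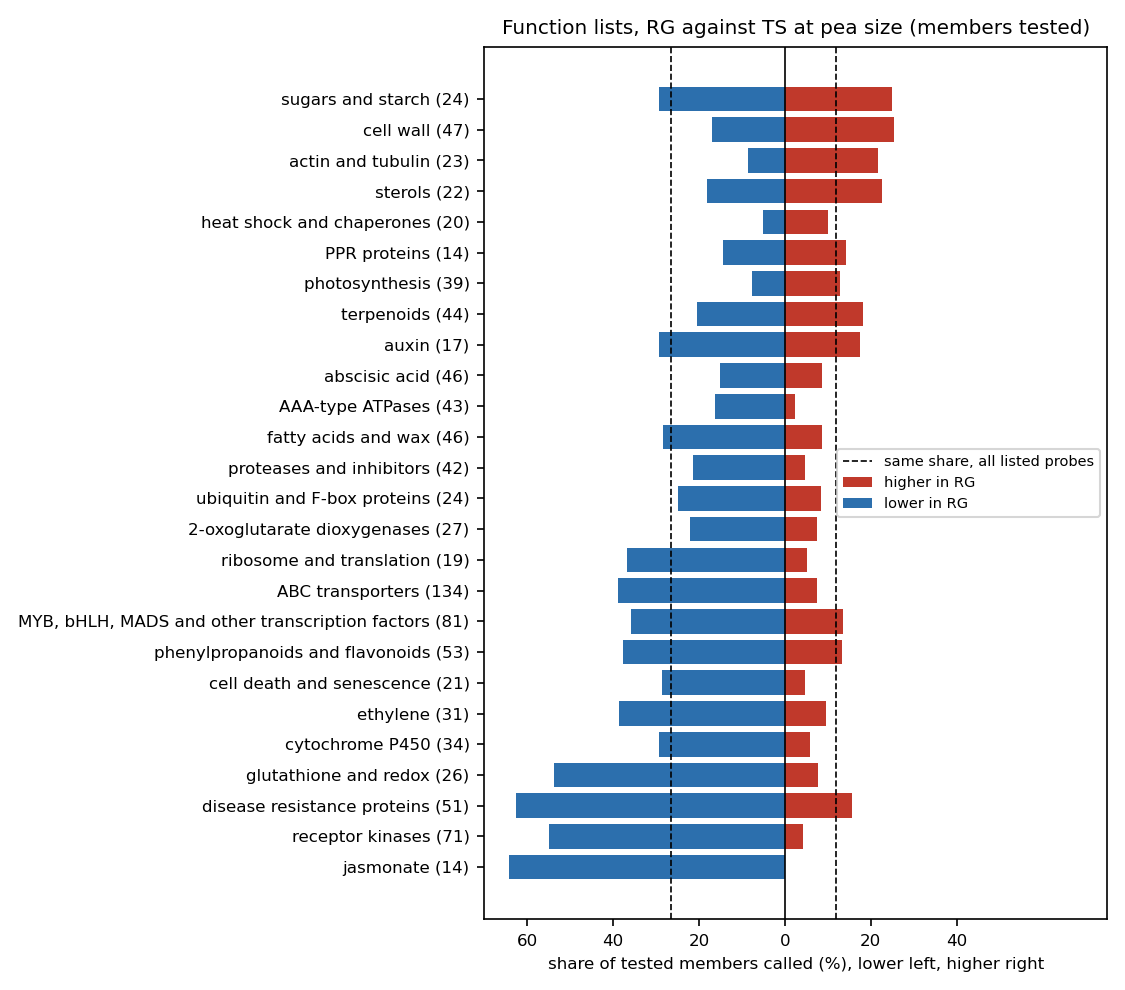
Share of the tested members of each function list (number in brackets) called higher (red, to the right) or lower (blue, to the left) in RG at pea size, for lists with at least 14 members in the set of 2363 probes. The dashed lines mark 12% higher and 26.6% lower over the whole set. Jasmonate, receptor kinase, disease resistance and glutathione lists reach furthest to the left.

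Defence genes were mostly lower in RG. Of 51 disease resistance proteins, the intracellular receptors that recognise pathogens, 32 were lower (62.7%) and 8 higher (15.7%), with a median of -2.15. Of 71 receptor kinases, which sense signals at the cell surface, 39 were lower (54.9%) and 3 higher (4.23%), with a median of -2.44. All but 4 of these probes come from the SD and SL lists of S1 and S2, where the background share of lower calls was 29.4%. Under the strict filter of all 6 arrays the lower counts were 17 and 15, with 28 and 42 of the probes tested. Of 12 S-locus type kinases 11 were lower and none higher, with a median of -5.62. Only 2 of the 12 were well above background on all 6 arrays, so that the median rests mostly on probes near background on some array.

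Chitinase-3 (VIT_11s0149g00350), which breaks down the chitin of fungal walls, showed the largest fall among the annotated genes well above background on all 6 arrays. The RG arrays read -6.13, -5.61 and -5.96 and the TS arrays 3.13, 3.22 and 3.54. All TS arrays thus lay above the 75th percentile of the array and all RG arrays far below it. The difference was -9.20 (standard error 0.46, adjusted p = 1.3e-13 from limma), and IT stood with RG at -4.34 ± 0.39 (SD, n = 3). Of 10 chitinases tested 8 were lower and none higher, with a median of -5.07, and 6 of the 10 were well above background on all 6 arrays. The secretory protein NtPRp27 (VIT_03s0091g00160), a pathogenesis-related protein first described in tobacco, read -4.23, -2.35 and -5.37 in RG and 2.79, 3.07 and 2.76 in TS. Its RG arrays were scattered but stayed well below every TS array (difference -6.86, standard error 0.68, adjusted p = 1.9e-08).

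The resistance protein L6 (VIT_12s0034g00910) read -3.71, -4.02 and -3.18 in RG and 0.09, 0.17 and 0.44 in TS. The difference was -3.87 (standard error 0.27, adjusted p = 3.8e-11 from limma). Another resistance protein, the PRF type VIT_15s0045g00880, was on all 3 TS arrays (0.08, -0.10 and 0.17) and on no RG array, and was at least 153-fold lower in RG. Such bounds set the mean of the brighter variety against the lowest signal called well above background on each dim array, or the probe's own signal where that was higher. They hold for the main processing only and are not minima over the alternatives. With normexp and quantile normalization the log2 difference of this PRF gene was -3.2, while its bound was 7.26 in size. The genes given below with such a bound also fell short of it there. A CC-NBS-LRR gene (VIT_14s0030g00150) read -2.12, -2.39 and -2.79 in RG and -5.29, -4.98 and -4.31 in TS. It was thus higher in RG, by 2.43 (standard error 0.48, adjusted p = 0.00036), and was higher in RG at the other 3 stages too, by 3.38 at S1, 4.09 at S2 and 5.39 at S4.

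Among the kinases, RK20-1 (VIT_00s0262g00010) read -3.24, -2.80 and -4.22 in RG and 1.22, 1.37 and 1.15 in TS, a difference of -4.67 (standard error 0.73, adjusted p = 1.9e-05 from limma). Wall-associated receptor kinase 5 (VIT_18s0001g01320), of a family that binds pectin, differed by -4.92 (standard error 0.79, adjusted p = 2.5e-05). The WRKY factor VvWRKY06 (VIT_04s0008g01470), of a family that switches on defence and senescence genes, read -3.80, -3.17 and -3.18 in RG and between 1.34 and 1.35 on every TS array. Its difference was -4.73 (standard error 0.66, adjusted p = 3.2e-06), and all 3 WRKY factors of the set were lower. The 1 annotated WRKY factor outside the set was called higher, by 3.67. SAG101 (VIT_05s0077g01720), in Arabidopsis a partner of resistance signalling and a senescence gene, read -2.83, -2.23 and -3.15 in RG and 3.26, 2.90 and 2.67 in TS (difference -5.68, standard error 0.60, adjusted p = 4.2e-08). The RG and TS arrays did not overlap in any of these 4 named genes, which was a condition for naming them.

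Jasmonate and ethylene are hormones of wounding and defence. None of the 14 jasmonate probes of the set was higher in RG and 9 were lower (64.3%), with a median of -2.50. The 9 are all annotated as 12-oxophytodienoate reductases (OPRs), a family named for the cyclic precursor of jasmonic acid, out of 12 such probes. Whether these members act in jasmonate synthesis was not tested. Of these 12 OPR probes 6 were well above background on all 6 arrays. Since 12 of the 14 come from the alphabetical stretch, the background here is 20.2%. OPR 1 (VIT_18s0041g02090) read -3.69, -3.71 and -4.18 in RG and 1.67, 0.45 and 0.51 in TS, and IT was as low as RG at -3.45 ± 0.03 (SD, n = 3). The difference was -4.74 (standard error 0.60, adjusted p = 8.1e-07 from limma). OPR probes of near-identical genes may hybridise to each other's RNA, which was not tested, so that the 9 cannot be taken as 9 separate genes. Allene oxide cyclase (VIT_14s0083g00110), which makes that precursor, is among the genes listed as higher in RG. It read 0.43, 0.96 and 0.89 in RG and -0.07, -1.59 and -2.62 in TS (difference 2.19, standard error 0.75, adjusted p = 0.028). That call was lost when RG replicate 2 or 3 or TS replicate 2 or 3 was left out, with adjusted p of 0.078, 0.075, 0.08 and 0.18.

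In the ethylene list 12 of 31 probes were lower (38.7%) and 3 higher (9.68%), with a median of -0.94. The lower calls were concentrated on the ACC oxidases, the enzymes that release ethylene, of which 7 of 10 were lower and 2 higher. One of these (VIT_02s0012g00360) read -1.20, -1.88 and -2.14 in RG and 1.75, 2.30 and 2.32 in TS, a difference of -3.87 (standard error 0.39, adjusted p = 2.2e-08 from limma). ACC oxidase 2 (VIT_11s0016g02380) showed the reverse, with -0.40, 0.24 and 0.68 in RG and -2.56, -4.32 and -4.65 in TS (difference 4.02, standard error 1.08, adjusted p = 0.0055). For ACC oxidase 2 the seeded IT stood with TS, at -4.20 ± 1.57 (SD, n = 3). Of 8 ACC synthase probes, for the step before, 1 was lower and 7 were not called. Both ACC oxidases were named under the condition of no overlap, and they went in opposite directions.

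Glutathione and redox genes were lower as a group, with 14 of 26 lower (53.8%), 2 higher (7.69%) and a median of -1.59. All 6 tau-class glutathione S-transferases (GSTU), which join glutathione to toxic or reactive compounds, were lower, between -6.22 and -4.27. GSTU8 (VIT_08s0007g01410) read -1.21, -1.35 and -2.07 in RG and 4.67, 4.79 and 4.56 in TS, and a second GSTU8 probe (VIT_08s0007g01400) read -1.13, -1.64 and -2.15 and 4.76, 4.38 and 4.37. The profiles of both probes are so close that they may report the same RNA, which was not tested. They differed by -6.22 (standard error 1.07, with an adjusted p of 5.9e-05 from limma) and by -6.14 (standard error 0.76, with an adjusted p of 6e-07). A cationic peroxidase (VIT_10s0116g01780) went against the group. It read 1.1, 1.18 and 1.16 in RG and -3.56, -2.72 and -2.48 in TS (difference 4.07, standard error 0.44, adjusted p = 8e-08).

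In the phenylpropanoid and flavonoid list, the pathway of lignin, tannin and pigments, 20 of 53 probes were lower (37.7%) and 7 higher (13.2%), with a median of -0.85. Of 6 cinnamyl alcohol dehydrogenases of the set, which make the alcohols that polymerise into lignin, 5 were lower. Of 2 more outside the set, 1 was higher and 1 was not called, with a median of 2.22. All 8 glycosyltransferases of flavonoids and anthocyanidins in the set were lower, but only 2 of these 8 were well above background on all 6 arrays. A further glycosyltransferase, from the list of genes higher in RG, was higher by 3.26. The dehydrogenase VIT_15s0107g00210 read -4.99, -5.74 and -5.60 in RG and 0.22, 0.24 and -0.11 in TS (difference -5.56, standard error 0.61, adjusted p = 8.1e-08 from limma). A pair of flavonoid 7-O-glucosyltransferases (VIT_05s0062g00270 and VIT_05s0062g00700) was on all TS arrays and on no RG array, at least 421-fold and at least 298-fold lower in RG in the main processing. With normexp and quantile normalization their log2 differences were -4.76 and -4.03, short of those bounds. An anthocyanidin 3-O-glucosyltransferase (VIT_03s0017g02000) read -4.56, -5.02 and -4.27 in RG and 1.77, 0.90 and 0.91 in TS (difference -5.81, standard error 0.61, adjusted p = 4e-08).

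VvMybPA2 (VIT_11s0016g01320), a regulator of tannin synthesis, was well above background on 1 TS array only. Its measured difference was 1.26 (standard error 0.31, adjusted p = 0.0029 from limma), and the call was lost with no scaling (1.66) and with normexp (0.35). The tannin enzymes VvANR (VIT_00s0361g00040) and VvLAR1 (VIT_01s0011g02960) differed by 0.84 and 1.13 and were not called (adjusted p = 0.39 and 0.2). VvLAR1 was called higher in 4 of 19 alternatives. These were the fit of only the 6 arrays, slide as a random block, and the methods' t-test, unadjusted and adjusted. Dihydroflavonol reductase (VIT_03s0038g04220), known here only from the list of genes higher in RG, was higher by 3.03 (standard error 0.82, adjusted p = 0.0059). Of 12 4-coumarate-CoA ligases, at the head of the pathway, 3 were higher and 1 was lower.

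ABC transporters, pumps that move metabolites, hormones and toxins across membranes, are all in the alphabetical stretch and so escape the choice on SD and SL differences. Of 134 tested 52 were lower (38.8%) and 10 higher (7.46%), beside 20.2% and 11.5% in that stretch. The lower calls lay mostly in the ABCG and pleiotropic drug resistance group, with 35 of 67 lower, 3 higher and a median of -2.02. The 10 ABCF and ABCI proteins, which mostly serve inside the cell, were not called and lay between -0.14 and 0.94. VvABCG2 (VIT_00s0625g00020) read -6.30, -5.99 and -6.27 in RG and -1.94, -0.88 and -1.33 in TS (difference -4.80, standard error 0.45, adjusted p = 5.7e-09). VvABCC21 (VIT_07s0005g00260) differed by -5.33 (standard error 0.68, adjusted p = 9.7e-07). VvABCG17 (VIT_07s0031g02550) was higher by 2.93 (standard error 0.75, adjusted p = 0.0037).

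Single protease, wall synthesis and transport genes also held very low values in RG. The protease list was not lower as a group. Of 42 proteases and inhibitors 9 were lower (21.4%) and 2 higher (4.76%), with a median of -0.21. The lists they come from had 29.4% lower and 12.2% higher. A subtilase (VIT_16s0098g00950), a secreted serine protease, read -2.35, -2.35 and -2.84 in RG and 4.02, 3.46 and 3.78 in TS (difference -6.27, standard error 0.72, adjusted p = 1.6e-07 from limma). The related subtilisin VIT_16s0098g01160 differed by -6.22 (standard error 0.51, adjusted p = 7.8e-10). A pair of CSLB04 probes (VIT_12s0059g00990 and VIT_12s0059g00960), of the cellulose synthase-like family, was on all TS arrays and on no RG array. In the main processing they were at least 483-fold and at least 382-fold lower, but with normexp and quantile normalization their log2 differences were -4.85 and -4.62. The AAA-type ATPase VIT_14s0066g02100 read -5.65, -5.37 and -3.65 in RG and 2.12, 2.51 and 2.20 in TS (difference -7.17, standard error 0.93, adjusted p = 1.3e-06). It stood apart in its list, where 35 of 43 probes were not called. The sucrose symporter SUC2 (VIT_18s0076g00250), which loads sucrose across the plasma membrane, read -0.73, -0.41 and -0.57 in RG and 2.37, 2.58 and 2.71 in TS. IT was nearer to TS for SUC2, at 2.01 ± 0.83 (SD, n = 3), and the difference between RG and TS was -3.12 (standard error 0.49, adjusted p = 2.2e-05).

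The largest rise among annotated genes well above background on all 6 arrays was a BURP domain protein (VIT_04s0008g03980), of a family of plant wall and seed proteins. It read 0.98, 1.07 and 1.32 in RG and -4.71, -4.83 and -5.55 in TS. The difference was 6.15 (standard error 1.01, adjusted p = 3.3e-05 from limma), and IT lay between at -0.49 ± 0.06 (SD, n = 3). The genes named from here to the paragraph on sterols come, unless marked otherwise, from lists made at pea size on these arrays, so their direction is no independent evidence.

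Vacuolar aquaporin TIP4;1 (VIT_04s0008g03550), a water channel, read 2.32, 2.79 and 2.71 in RG and -3.38, -2.59 and -2.59 in TS (difference 5.46, standard error 1.12, adjusted p = 0.00049 from limma). The potassium transporter HKT1 (VIT_11s0103g00050) read 3.65, 3.84 and 3.11 in RG and -2.28, -1.43 and -1.39 in TS (difference 5.24, standard error 1.60, adjusted p = 0.014). Copper transporter 2 (VIT_03s0110g00370) read 2.41, 2.70 and 2.33 in RG and -3.19, -2.89 and -2.92 in TS (difference 5.48, standard error 1.28, adjusted p = 0.0018). In all 3 the RG arrays were tight and lay above the 75th percentile of the array, whereas TS lay below it. IT was in between and variable for them, with SDs of 1.48, 1.67 and 1.66 over 3 arrays. The MtN3 gene (VIT_17s0000g00830), of the SWEET family of sugar exporters, read 0.67, 0.75 and 0.94 in RG and -5.16, -4.22 and -3.84 in TS (difference 5.19, standard error 0.80, adjusted p = 1.4e-05).

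The low affinity sulphate transporter VIT_18s0001g04890 read 0.43, 0.92 and 0.98 in RG and -4.17, -4.42 and -4.30 in TS (difference 5.07, standard error 0.58, adjusted p = 1.6e-07 from limma). Sulfate transporter 3.1 (VIT_05s0020g03970), not from that list, read -3.92, -4.15 and -3.84 in RG and 1.14, 2.70 and 3.04 in TS (difference -6.26, standard error 0.53, adjusted p = 1.4e-09). Both transporters were named under the condition of no overlap. Stachyose synthase (VIT_19s0015g01350), for a sugar that seeds store before drying, read 2.40, 2.45 and 2.95 in RG and -0.88, -2.06 and -2.16 in TS (difference 4.30, standard error 0.84, adjusted p = 0.00028 from limma). Over the 24 sugar and starch probes of the set 6 were higher and 7 lower, and the lower count was 3 with quantile normalization.

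**Figure D3:**
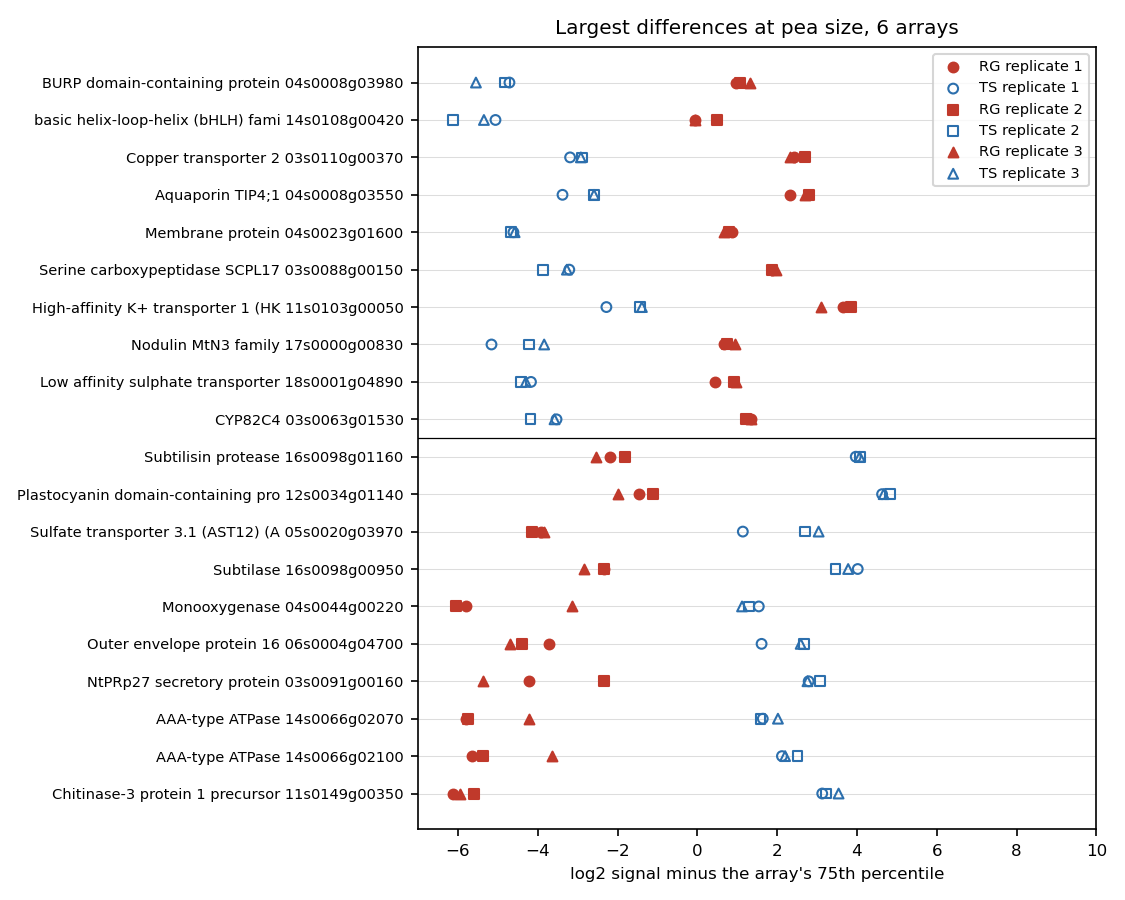
Log2 signal minus the array's 75th percentile on each of the 6 arrays at pea size (RG filled, TS open), for the annotated genes with the 10 largest rises and the 10 largest falls in RG among those well above background on all 6 arrays. The RG and TS arrays are therefore separate in every gene by choice. RG replicate 3 stands above the other RG arrays in the AAA-type ATPases and the monooxygenase.

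Cell wall genes rose more often than the set in the main fit. In the set 12 of 47 were higher (25.5%), beside 12%, and 8 were lower (17.0%), beside 26.6%. The 12 fell to 6 with no scaling, to 7 with normexp or without RG replicate 1, and to 8 without RG replicate 2 or TS replicate 3. With quantile normalization the count was 15. Of 9 mannan endohydrolases, which open the mannans of seed walls, 4 were higher and none lower, and of 5 endo-1,3-beta-glucosidases 4 were higher. Expansin VvEXPA1 (VIT_01s0026g02620), which loosens the wall during growth, read 2.43, 2.74 and 2.06 in RG and -0.61, -1.37 and -1.43 in TS (difference 3.55, standard error 0.68, adjusted p = 0.00023 from limma). Xyloglucan endotransglucosylase 8 (VIT_10s0116g00520), which cuts and rejoins wall xyloglucan, read -1.29, -1.64 and -1.04 in RG and -4.45, -5.97 and -6.39 in TS (difference 4.28, standard error 0.73, adjusted p = 5.2e-05). A GH28 polygalacturonase (VIT_01s0127g00120), which cuts pectin, was well above background on all RG arrays and 1 TS array, with readings of 0.69, 0.28 and -1.04 against -5.02, -7.56 and -7.29. In the set 3 of 6 polygalacturonases and expansins were higher and none lower, and of 7 outside it, on lists made at pea size, 6 were higher.

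In the set, growth hormone probes were few, and all come from the SD and SL lists of S1 and S2, with 12.2% higher and 29.4% lower. Of 9 for cytokinin, gibberellin and brassinosteroid none was higher and 1 lower (11.1%). Of 17 for auxin 3 were higher (17.6%) and 5 lower (29.4%). These numbers are too small to set either list apart from those shares. The gibberellin receptor GID1L3 (VIT_15s0048g01390), from the set, differed by -3.07 (standard error 0.49, adjusted p = 2.5e-05 from limma). A GH3-like gene (VIT_12s0059g01870), of the enzymes that conjugate auxin, also from the set, differed by -3.46 (standard error 0.73, adjusted p = 0.00065).

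Rises were named from the lists made at pea size. Gibberellin 20 oxidase 2 (VIT_04s0044g02010), a late step of gibberellin synthesis, read 2.34, 2.65 and 2.77 in RG and 0.44, -0.40 and -0.51 in TS (difference 2.74, standard error 0.58, adjusted p = 0.00061 from limma). The seeded IT stood with TS for this gene, at -0.61 ± 0.72 (SD, n = 3). A GASA gene (VIT_17s0000g06210), of the gibberellin-induced small peptides, read 0.76, 0.73 and 0.95 in RG and -2.72, -4.13 and -3.33 in TS, and IT matched RG at 0.73 ± 0.32 (SD, n = 3). Its difference was 4.21 (standard error 0.71, adjusted p = 5.1e-05). The auxin response gene IAA19 (VIT_09s0002g05150) was higher by 2.74 (standard error 0.66, with an adjusted p of 0.0023). IAA7 (VIT_05s0020g04690), of the same repressor family but from the set, differed by -2.77 (standard error 0.40, adjusted p = 6.5e-06).

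Cyclin D (VIT_07s0129g01100), which starts the division cycle, read 0.27, 0.24 and 0.46 in RG and -1.98, -2.93 and -3.13 in TS (difference 3.00, standard error 0.52, adjusted p = 6.9e-05 from limma). Of the 73 cell division probes listed as higher in RG and tested here, 58 were called, 24 of 28 kinesins and 11 of 12 histones among them. In the set only 7 such probes were tested, with 1 higher and 3 lower. The same held for ribosomes and translation, with 73 of 83 listed probes called higher and, in the set, 1 of 19 higher and 7 lower. Ribosomal protein S16 (VIT_18s0001g14620) read 2.75, 2.70 and 2.65 in RG and -4.26, 0.23 and 0.08 in TS. Its difference of 4.02 (adjusted p = 2.5e-05 from limma) was 2.54 without TS replicate 1, and the call was lost in the methods' t-test, unadjusted and adjusted. For these functions the direction over all members on the array was not analysed here.

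Over the 81 transcription factor probes of the set 29 were lower (35.8%) and 11 higher (13.6%), and over 34 cytochrome P450s 10 were lower (29.4%) and 2 higher (5.88%). The genes named next rose and come from the lists made at pea size. The MYB factor RAD (VIT_03s0063g02620) read 2.58, 3.32 and 3.22 in RG and -1.30, -2.20 and -2.43 in TS (difference 5.02, standard error 0.66, adjusted p = 1.5e-06 from limma), and its relative Radialis-like 6 (VIT_03s0063g02670) was on all RG arrays and on no TS array, at least 57.6-fold higher. In snapdragon, RAD is known for petal asymmetry. A bHLH factor (VIT_14s0108g00420) was higher by 5.63 (standard error 0.74, adjusted p = 1.5e-06). The CYP82C4 pair (VIT_03s0063g01530 and VIT_03s0063g01480), cytochrome P450s that in Arabidopsis hydroxylate coumarins, read 1.34, 1.22 and 1.34 and 0.22, 0.20 and 0.30 in RG against at most -3.53 and -4.42 in TS. They differed by 5.07 (standard error 0.57, with an adjusted p of 1.2e-07) and by 4.99 (standard error 0.55, with an adjusted p of 8.1e-08), and the probes may share RNA, which was not tested. Serine carboxypeptidase SCPL17 (VIT_03s0088g00150) was higher by 5.35 (standard error 0.95, adjusted p = 9.7e-05).

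A pentatricopeptide repeat protein (VIT_09s0002g08590), of the family that edits and processes organelle RNA, had the highest bound among the rises. It read 1.20, 1.02 and 0.59 in RG and was on no TS array (-8.32, -8.93 and -8.52), at least 233-fold higher in RG, while IT was level with RG at 0.87 ± 0.68 (SD, n = 3). With normexp and quantile normalization its log2 difference was 4.19, short of that bound. A 2-oxoglutarate-dependent dioxygenase (VIT_09s0002g05350) was on all RG arrays and on no TS array, at least 59.0-fold higher. In the sterol list genes moved both ways. Sterol 4-alpha-methyl-oxidase 1 (VIT_02s0241g00030) read 0.49, 0.58 and 0.65 in RG and -2.15, -2.23 and -2.51 in TS (difference 2.87, standard error 0.30, adjusted p = 4.7e-08 from limma). Squalene monooxygenase (VIT_00s0525g00020) differed by 2.74 (standard error 0.40, adjusted p = 8.1e-06). The largest fall was 11-beta-hydroxysteroid dehydrogenase (VIT_01s0146g00070), from the set, with a difference of -6.13 (standard error 0.69, adjusted p = 1.4e-07). There too IT stood with TS, at 0.67 ± 1.28 (SD, n = 3). In the set 5 of 22 sterol probes were higher (22.7%) and 4 lower (18.2%).

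Several functions had medians near 0, and some of them fewer lower calls than their background. Photosynthesis had 5 higher (12.8%) and 3 lower (7.69%) of 39, with a median of 0.17. Abscisic acid, the hormone of seed maturation, had 4 higher (8.7%) and 7 lower (15.2%) of 46, with a median of -0.17. Of these 46, 45 are in the alphabetical stretch, where 11.5% were higher and 20.2% lower. Terpenoids had 8 higher (18.2%) and 9 lower (20.5%) of 44, with a median of 0.09. Since 39 of them are in the alphabetical stretch, their lower calls were no fewer than the background there. The 12 actin-related proteins lay between -0.59 and 1.12, all short of a call. The 8 diacylglycerol kinases of the set were not called either, but all lay below 0, between -1.49 and -0.46, with a median of -0.78.

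The difference between the varieties was also set against that at the neighbouring stages. Both changes below use the pea size arrays. From S2 to S3 it moved toward RG in 427 probes (1.92%) and toward TS in 1308 (5.89%). From S3 to S4 it moved toward RG in 2431 (10.9%) and toward TS in 2331 (10.5%). On its own arrays, S2 gave 430 higher and 704 lower calls, and S4 gave 1568 and 2306. Of the 5223 probes called at pea size, 759 were called the same way at S2 and 1028 at S4, 30 the opposite way at S2 and 634 at S4, and 216 the same way at all 4 stages. Thus most calls at pea size were not shared with the stage before, although a missing call there does not show equality.

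**Figure D4:**
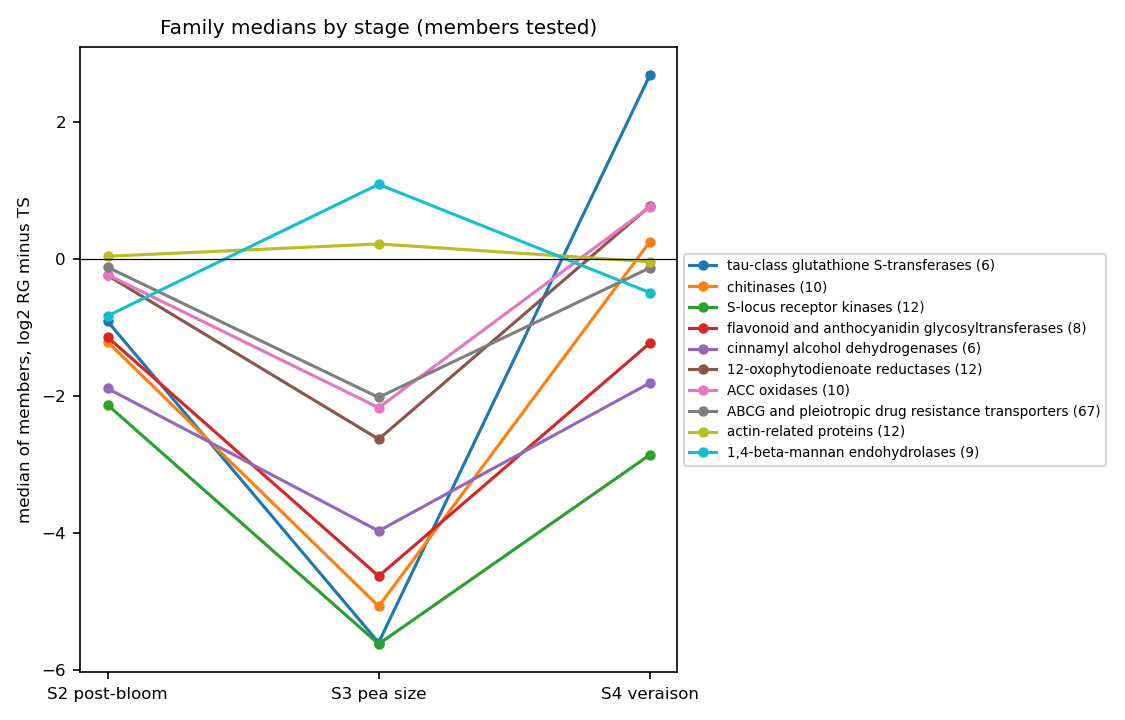
Median of the log2 difference, RG minus TS, over the members of 10 gene families at S2, S3 and S4 (number tested in brackets). Tau-class glutathione S-transferases ran from -0.91 over -5.60 to 2.68, S-locus kinases stayed below 0 throughout, and actin-related proteins stayed near 0. In some families many members were not well above background on all 6 pea size arrays. Those that were numbered 2 of 12 S-locus kinases, 2 of 8 flavonoid and anthocyanidin glycosyltransferases, 6 of 12 OPRs and 6 of 10 chitinases.

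Families of the lower genes differed in how they ran on to veraison. All 6 GSTU probes had a called change both into and out of pea size, with medians of -0.91 at S2, -5.60 at S3 and 2.68 at S4. For GSTU8 (VIT_08s0007g01400) RG went from 0.07 at S2 to 1.39 at S4 and TS from 0.92 to -1.68, so that the order of the varieties was opposite at S4 (difference 3.07, adjusted p = 0.0039 from limma). The OPRs had medians of -0.24, -2.63 and 0.77 and the ACC oxidases -0.23, -2.17 and 0.76, near 0 at S2 and above 0 at S4. Chitinases ran from -1.21 over -5.07 to 0.25. S-locus kinases stayed lower in RG at all 3 stages (-2.13, -5.62 and -2.86), and cinnamyl alcohol dehydrogenases likewise (-1.89, -3.97 and -1.81). Members of both, and all 6 GSTU probes, entered the set through differences between SD and SL varieties at S1 or S2. So did the chitinases outside the alphabetical stretch, which holds 5 of the 10. The S2 values of all these probes follow in part from that choice. Mannan endohydrolases, the other direction, ran from -0.83 over 1.09 to -0.49.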

How the data were processed

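The authors hybridised Cy3-labelled RNA and deposited Agilent Feature Extraction output (version 10.7.1.1 per the file headers), with background-corrected spot intensity not scaled between arrays. Of the values in the deposited matrix, 99.15% lay within 0.1% of the unscaled scanner mean. From 43803 spots (26688 probes), the 22683 probes of the matrix were taken and 101 left out for outlier flags. Log2 signals minus each array's 75th percentile were fitted with limma 3.58.1 (R 4.3.3) as 12 group means over 36 arrays (24 residual degrees of freedom), and the fit was tested on simulated data. Named genes are, among called probes measured above background on each of the 6 arrays and without overlap, the 2 largest rises and falls per function list and the 10 largest among all annotated probes, besides the 5 brightest per direction present in 1 variety alone, VviAGL11 and tissue markers. Members, lists and families were chosen with earlier results of these data known. Alternatives covered scaling, background, matrix values, probes, filter, arrays in the fit, replicate number or slide as a block, the methods' t-test, and leaving out each array. Each array is 1 biological sample, and 3 per variety limit the precision. The scan dates in the headers precede the sampling seasons stated.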

Additional observations from a re-analysis of the deposited data

Results flagged for a closer look

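Among the 154 called genes the naming rule gave, the RG minus TS difference changed between stages, by limma's test of the change itself, in 61 from S2 to S3, and in more of them from S3 to S4. Groups of 3 arrays are too small for a check of single outlying arrays. From S2 to S3 the change on the log2 scale was -8.31 for flavonoid 7-O-glucosyltransferase VIT_05s0062g00700 and -7.52 for VIT_05s0062g00270, -7.20 for monooxygenase VIT_04s0044g00220, and -6.49 for resistance protein PRF VIT_15s0045g00880. It was 7.45 for aquaporin TIP4;1 (VIT_04s0008g03550) and 6.12 for the sugar transporter ERD6-like 16 (VIT_05s0020g02170). The values of genes below background in RG at S3 are fitted and not bounds.

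In 31 named genes RG and TS were called in opposite order at S3 and S4. The changes of the 10 largest were -9.53 for GASA VIT_17s0000g06210, 9.41 and 9.21 for the GSTU8 probes VIT_08s0007g01410 and VIT_08s0007g01400, -8.47 for bHLH VIT_14s0108g00420 and -8.42 for membrane protein VIT_04s0023g01600. They were -7.67 for RAD VIT_03s0063g02620, 7.67 for the ubiquitin ligase RGLG2 VIT_00s0780g00040, 7.66 for anthocyanidin 3-O-glucosyltransferase VIT_03s0017g02000, -7.57 for expansin VvEXPA14 VIT_13s0067g02930 and -7.29 for ACC oxidase 2 VIT_11s0016g02380.

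Of 865 scanner probes tested that the deposited matrix does not list, 144 were called in RG against TS at S3 (16.6%), 36 higher and 108 lower. They have no annotation here.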

How the results depend on the processing

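Against 5223 calls at pea size (2009 higher, 3214 lower), no scaling gave 2294 (771 and 1523), normexp with quantile normalization 3070 (1283 and 1787), and probes well above background on all 6 arrays 1749 higher and 1907 lower. The share of calls that were higher, 38.5%, was 48.7% with quantile normalization and 47.8% with that filter. Leaving out 1 array gave 4215 to 5271 calls. For the change from S2 to S3, against 1735 calls, quantile normalization gave 1109, no scaling 393, the filter on all 6 arrays 1001, slide as a random block 3129 (correlation 0.426), and leaving out 1 array 1126 to 1770, the lowest without TS replicate 3. For S3 to S4, against 4762, no scaling gave 1764. Called members of function lists were 427, but 237 with no scaling and 278 with the filter. Of 154 called named genes 105 kept the call and direction in all 19 alternatives, 49 lost the call in at least 1, and 0 changed sign. Why these counts moved was not tested.

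Replicate numbers did not pair the arrays: same-numbered RG and TS deviations correlated at -0.002, 0.303 and -0.17. The replicate block gave 2205 higher and 3471 lower.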
